A study of Rattus norvegicus with 18 samples.

Results

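The genes described here carry glucose into the cell and break it down to lactate. They are the glucose transporter gene Slc2a1 and the enzyme genes Hk1, Hk2, Pfkl, Pfkp, Aldoa, Pgk1, Eno1, Pkm and Ldha, 10 of the 30643 genes in the deposited tables. The members were chosen by gene symbol, with the OA and sham levels of these same libraries already known, so their OA and sham differences are given as a description and carry no test. All 10 were found once in each table, and all 10 passed the minimum level of 10 normalized reads on average.

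RNA was sequenced from cells of the knee synovium, the tissue that lines the joint, of wild type male Sprague Dawley rats. Surgery was done at 12 weeks of age. In the post traumatic osteoarthritis (OA) groups the joint was opened and the anterior cruciate and medial meniscotibial ligaments were cut, and in the sham groups the joint was opened and no ligament was cut. Cells were sorted on magnetic beads for CD11b/c, surface integrins of monocytes, macrophages and other myeloid cells, 4 or 12 weeks after surgery. There were 5 OA and 5 sham libraries at 4 weeks, each a pool of 4 rats, and 4 OA and 4 sham libraries at 12 weeks, each a pool of 3 rats. A level is therefore a mean over pooled animals, and it cannot show how single rats differed.

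Glycolysis turns glucose into pyruvate in the cytosol and yields ATP without oxygen. GLUT1, the product of Slc2a1, takes up glucose, hexokinases trap it by phosphorylation, and phosphofructokinase commits it to the pathway. The lower enzymes run from aldolase to pyruvate kinase, with ATP made in steps after aldolase. Lactate dehydrogenase A reduces pyruvate to lactate. In macrophages this route is known to increase on inflammatory activation and in low oxygen, where the factor HIF-1 drives many of its genes.

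The members' reads were counted at a depth of 4662344 to 18080503 recovered reads per library, and no member had fewer than 196 reads in any library. Sham replicate 3 of 4 weeks stood apart, with the fewest reads and yet the most genes with a read, 25919. Its median gene had 20.9 normalized reads, against 5.42 to 8.72 in the other 4-week libraries. For some results that rest on it a value without it is given, and for others it is named. All 14 macrophage markers were read in every group, and their summed level was 139574 to 169363 normalized reads at 4 weeks and 155284 to 223633 at 12 weeks. Other cells were present too. Fibroblast markers summed to 56455 to 123933 normalized reads at 4 weeks and 67968 to 123650 at 12 weeks, endothelial markers to 33245 to 46322 and 32306 to 55268, and neutrophil markers to 1351 to 15033 and 1270 to 5449. T and NK cell markers stayed at 336 to 564 in all libraries. In these bulk samples, fewer cells of a type and less RNA per cell cannot be told apart, and glycolysis genes are used by every cell type listed.

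Promoters are shown for Ldha and Slc2a1, the only members whose window held the letters ACGTG on either strand. These letters are a form of the core of the site that HIF-1 is known to bind. Other forms of that core, such as GCGTG, were not searched for. A window of 250 bases before the outermost listed transcription start, from RefSeq on the GRCr8 assembly, was found for 9 of the 10 members, all but Pgk1. Any other starts of a member were not searched. The Pkm window lies inside the annotated gene. Capitals mark each ACGTG or its reverse complement CACGT.
Ldha promoter (chr1:106507842-106508091, plus strand): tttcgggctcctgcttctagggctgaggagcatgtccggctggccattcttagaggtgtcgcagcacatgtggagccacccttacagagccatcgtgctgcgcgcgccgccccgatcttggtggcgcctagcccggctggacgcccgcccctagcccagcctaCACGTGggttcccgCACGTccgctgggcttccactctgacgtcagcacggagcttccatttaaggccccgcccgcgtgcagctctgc
Slc2a1 promoter (chr5:138002272-138002521, plus strand): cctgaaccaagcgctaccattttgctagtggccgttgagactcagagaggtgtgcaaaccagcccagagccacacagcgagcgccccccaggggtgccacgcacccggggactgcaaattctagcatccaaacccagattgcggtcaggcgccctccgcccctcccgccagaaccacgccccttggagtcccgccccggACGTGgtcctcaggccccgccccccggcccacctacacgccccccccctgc
The Ldha window held 3 matches, which start 87, 86 and 73 bases before the transcription start. The first pair overlap in the palindrome CACGTG, so that they are 1 stretch read on both strands. The Slc2a1 window held 1 match, 51 bases before the start. Of 33469 listed windows of the same length, 5547 (16.6%) held such letters, against 2 of 9 member windows. The share of 16.6% covers every listed window, while each member was read at a single start. A match describes letters and does not show that a factor binds there.

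The first question was whether OA and sham macrophages differed in these genes within each week. Levels are the authors' normalized reads, DESeq2-scaled within each week, and in limma a gene counted as called when its log2 fold change reached 0.5, up or down, and its adjusted p-value was under 0.05. None of the 10 members was called at 4 weeks, where 0.0% of 14861 genes tested were called, or at 12 weeks, where 0.0% of 14666 genes tested were called. Without adjustment, limma gave 1177 and 1814 genes with a p-value under 0.05, and DESeq2 on the recovered reads called 29 and 99 genes, with 0 members among them at either week. OA and sham libraries overlapped for all 10 members at both weeks. Over all genes tested the groups did not overlap in 1.87% at 4 weeks and in 6.29% at 12 weeks.

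**Figure D1:**
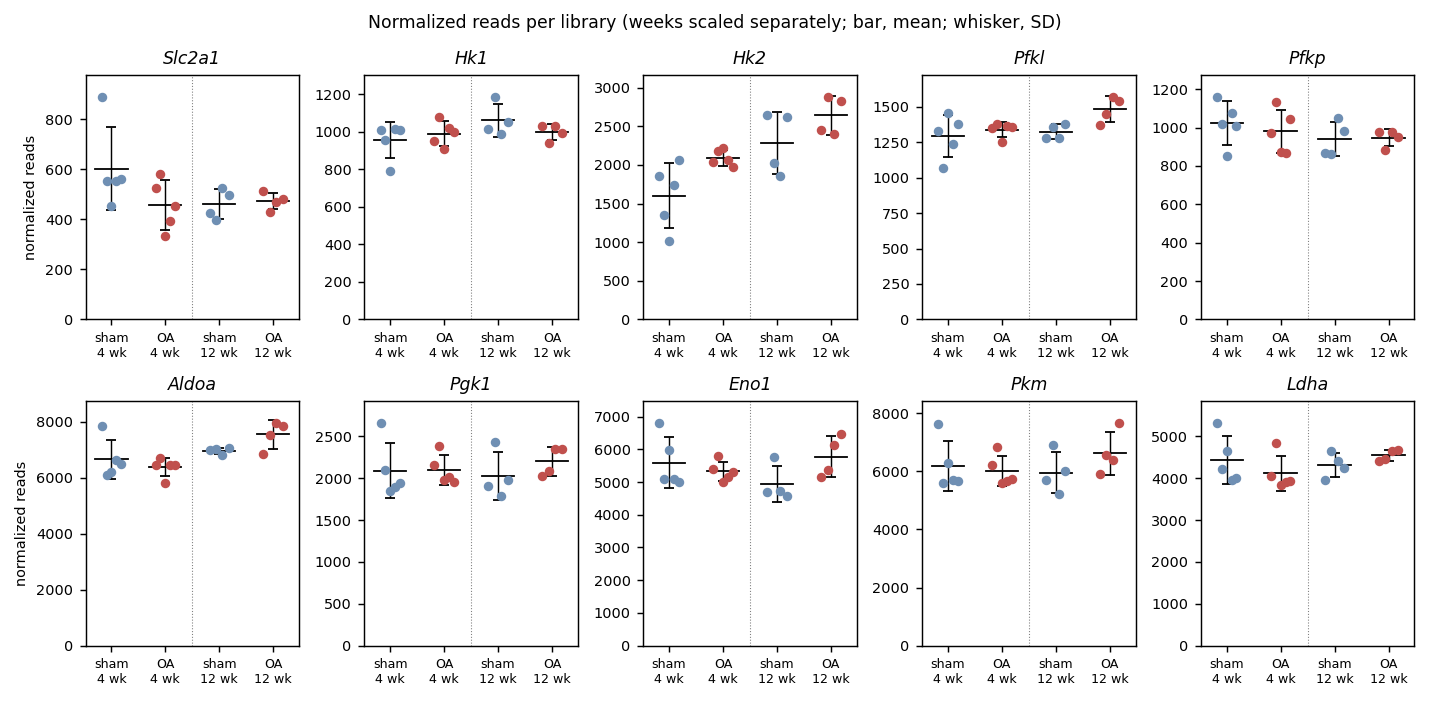
Normalized reads (y axis, linear from 0) of the 10 members in each library, grouped on the x axis by surgery and week, with 5 libraries per group at 4 weeks and 4 at 12 weeks. Points are libraries, bars are group means and whiskers are SD, and the weeks were scaled separately. OA and sham points overlap in every panel at both weeks, and at 4 weeks the sham spread of Hk2 and Slc2a1 is the widest relative to its mean (SD 26.2% and 27.7% of the mean).

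Glucose uptake begins with Slc2a1, the transporter gene. At 4 weeks it had 525, 581, 333, 395 and 455 normalized reads in OA and 890, 554, 455, 552 and 562 in sham. The highest sham library, replicate 1, stood above all others, and the OA libraries spread from below the lowest sham library to above 4 of the 5. The OA mean was 458 ± 99.1 (SD, n = 5) and the sham mean 602 ± 167 (SD, n = 5), a log2 fold change of -0.38 (SE 0.18), which ranged from -0.48 to -0.23 over the alternatives and was -0.23 without sham replicate 1. At 12 weeks Slc2a1 had 513, 431, 469 and 482 normalized reads in OA and 427, 398, 524 and 499 in sham, with OA inside the sham range. The log2 fold change was 0.04 (SE 0.10). The neuronal-type glucose transporter gene Slc2a3 had at most 2 recovered reads in any library, under the detection floor of 3 reads, so no level is given. Slc16a3, the gene of the lactate exporter MCT4, had 323 to 993 normalized reads at 4 weeks and 487 to 708 at 12 weeks, with log2 fold changes of 0.07 (SE 0.24) and 0.20 (SE 0.09).

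The hexokinases trap glucose. Hk2, the inducible form, had the largest OA and sham difference of the 10 members at 4 weeks in limma on the normalized reads of all libraries. Hk2 had 2038, 2181, 2219, 2063 and 1969 normalized reads in OA and 1851, 1346, 1014, 1743 and 2063 in sham. All 5 OA libraries lay within a narrow range, 4 of the 5 sham libraries lay below it, and only sham replicate 5 reached into it. The mean was 2094 ± 103 (SD, n = 5) in OA against 1604 ± 420 (SD, n = 5) in sham, a ratio of 1.31 and a log2 fold change of 0.43 (SE 0.16). Sham replicate 3 was the lowest library, and without it the log2 fold change was 0.27. Over the alternatives, leaving out each library included, the log2 fold change ranged from 0.27 to 0.53. The rank of Hk2 changed among them. Slc2a1 differed more in edgeR (-0.43 against 0.36), DESeq2 (-0.42 against 0.37) and with TMM scaling (-0.41 against 0.40). It also did so without some single libraries, such as sham replicate 3 (-0.48 against 0.27).

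At 12 weeks Hk2 had 2448, 2882, 2399 and 2832 normalized reads in OA and 2643, 2029, 1854 and 2619 in sham. The lower pair of sham libraries lay below every OA library and the upper pair within the OA range. The log2 fold change was 0.22 (SE 0.12), with a range of 0.13 to 0.30 over the alternatives. Hk1, the housekeeping form, differed little between libraries. Hk1 had 948, 1078, 907, 1019 and 998 normalized reads in OA and 1011, 954, 789, 1014 and 1007 in sham at 4 weeks, and 1032, 938, 1030 and 993 in OA against 1016, 1186, 990 and 1053 in sham at 12 weeks. Its log2 fold changes were 0.06 (SE 0.09) and -0.09 (SE 0.07). The myeloid form Hk3 had log2 fold changes of 0.13 (SE 0.29) and 0.42 (SE 0.18).

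The ratio of Hk1 to Hk2 within a library does not depend on how libraries are scaled. At 4 weeks its geometric mean was 0.472 in OA, with libraries from 0.409 to 0.507, and 0.611 in sham, with libraries from 0.488 to 0.778. The highest of these sham ratios was that of replicate 3. At 12 weeks it was 0.379 in OA (0.325 to 0.429) and 0.469 in sham (0.384 to 0.584). The ranges overlapped at both weeks. Since reads were not divided by transcript length, these ratios compare libraries and not the amounts of the enzymes' transcripts.

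Phosphofructokinase, the committed step, was measured through the liver form Pfkl and the platelet form Pfkp. Pfkl had 1351, 1381, 1249, 1365 and 1356 normalized reads in OA and 1329, 1067, 1458, 1235 and 1377 in sham at 4 weeks, where the OA libraries lay inside the sham range. At 12 weeks Pfkl had 1370, 1449, 1571 and 1543 in OA and 1280, 1360, 1282 and 1377 in sham. There the highest sham library passed only the lowest OA library, and the log2 fold change was 0.16 (SE 0.06), against 0.06 (SE 0.09) at 4 weeks. Pfkp had 870 to 1134 normalized reads in OA and 849 to 1160 in sham at 4 weeks, and 882 to 976 and 865 to 1048 at 12 weeks. Its log2 fold changes of -0.06 (SE 0.10) and 0.01 (SE 0.08) were smaller than their errors. The ratio of Pfkl to Pfkp had a geometric mean of 1.37 in OA and 1.26 in sham at 4 weeks, and of 1.57 in OA and 1.41 in sham at 12 weeks. The muscle form Pfkm had 285 to 476 normalized reads at 4 weeks and 316 to 600 at 12 weeks.

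Of the lower enzymes, Eno1 had the largest difference of the 10 members at 12 weeks, nearly level with Hk2 (log2 fold changes of 0.23 and 0.22). Eno1 encodes alpha-enolase, which makes phosphoenolpyruvate. It had 5157, 5354, 6126 and 6472 normalized reads in OA and 4708, 5750, 4715 and 4568 in sham. Sham replicate 2 lay within the OA range and the other 3 sham libraries lay below it. The OA mean was 5777 ± 624 (SD, n = 4) and the sham mean 4935 ± 548 (SD, n = 4), with a log2 fold change of 0.23 (SE 0.10) and a range of 0.17 to 0.30 over the alternatives. At 4 weeks Eno1 had 5410, 5782, 5006, 5152 and 5300 in OA and 6800, 5095, 5981, 5079 and 5009 in sham, a log2 fold change of -0.06 (SE 0.10).

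Aldoa (aldolase A) splits the 6-carbon sugar, Pgk1 acts in the first step that makes ATP, and Pkm makes pyruvate and ATP in the last. At 12 weeks Aldoa had 6841, 7547, 7955 and 7860 normalized reads in OA and 6985, 7021, 6824 and 7070 in sham, where the sham libraries were close together and 3 of the 4 OA libraries lay above them. Its log2 fold change was 0.11 (SE 0.07). Pkm had 5913, 6562, 6386 and 7661 in OA and 5686, 6907, 5230 and 6009 in sham, and Pgk1 had 2023, 2086, 2352 and 2354 in OA and 1912, 2431, 1782 and 1978 in sham. Their log2 fold changes were 0.16 (SE 0.10) and 0.13 (SE 0.10), with sham replicate 2 the highest sham library for both. At 4 weeks Aldoa ranged from 5831 to 6704 in OA and from 6116 to 7848 in sham, Pgk1 from 1950 to 2379 and from 1852 to 2658, and Pkm from 5602 to 6851 and from 5599 to 7644. The 4-week log2 fold changes were -0.06 (SE 0.09) for Aldoa, 0.02 (SE 0.10) for Pgk1 and -0.03 (SE 0.10) for Pkm.

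Ldha, whose enzyme makes lactate, had 4045, 4834, 3840, 3923 and 3932 normalized reads in OA and 5319, 4218, 4656, 3970 and 4006 in sham at 4 weeks. Sham replicate 1 was the highest library, and the other 4 sham libraries lay within the OA range. At 12 weeks Ldha had 4411, 4462, 4643 and 4671 in OA and 3952, 4650, 4424 and 4235 in sham. The log2 fold changes were -0.10 (SE 0.10) and 0.08 (SE 0.07). Ldhb, which favours the reverse reaction, varied more between libraries, from 220 to 564 normalized reads at 4 weeks and from 281 to 1039 at 12 weeks. The ratio of Ldha to Ldhb ranged from 8.20 to 22.0 in OA and from 7.59 to 21.0 in sham at 4 weeks, and from 4.47 to 16.6 and 6.19 to 14.1 at 12 weeks.

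Over the 10 members, 4 were higher and 6 lower in OA at 4 weeks, where 57.1% of all genes tested were higher. The median log2 fold change was -0.05 against 0.03 for all genes tested. At 12 weeks 9 were higher and 1, Hk1, was lower, with a median of 0.12 against -0.01, where 47.5% of all genes tested were higher in OA. Among the 9, Pfkp (0.01, SE 0.08) and Slc2a1 (0.04, SE 0.10) differed by less than their errors. With each 12-week library left out in turn, 7 to 9 members were higher, 7 of them without sham replicate 2. The median then ranged from 0.09 to 0.16. Members share libraries, so the count does not stand for separate observations. Sham replicate 1 of 4 weeks was the highest of the 10 libraries for 7 of the 10 members. Without it 7 members were higher in OA at 4 weeks and the median was 0.03. Macrophage markers summed to 150175 normalized reads in that library and to 139574 to 149834 in the other 4 sham libraries, and neutrophil markers to 5598 and to 1983 to 5771. Fibroblast markers summed to 56455 in that library, the lowest of the 4-week libraries, and to 64783 to 123921 in the other 4 sham libraries. Without sham replicate 3, the median was -0.03 with 2 members higher. The mean log2 level over the 10 members ranged from 11.13 to 11.27 in OA and from 11.04 to 11.15 in sham at 12 weeks, and the ranges overlapped. Beside the 12-week values, 13 of 14 macrophage markers were higher in OA, with a median log2 fold change of 0.10 and sums of 187560 to 223633 normalized reads in OA and 155284 to 217031 in sham. All 7 endothelial markers tested were lower, with a median of -0.23 and sums of 32306 to 41312 and 36855 to 55268. Fibroblast markers summed to 94386 to 123650 normalized reads in OA and 67968 to 101514 in sham. Muscle markers summed to 3509 to 4686 and 3280 to 3996, and erythroid markers to 1708 to 7420 and 2335 to 4931. Of those tested, 11 of 13 fibroblast (median 0.47), 15 of 19 muscle (0.47) and 7 of 7 erythroid markers (0.40) were higher in OA. Neutrophil markers were 3 higher and 7 lower (median -0.20). At 4 weeks 12 of 14 macrophage (median 0.13) and 10 of 13 fibroblast markers (0.31) were higher, against 5 of 18 muscle and 0 of 6 erythroid markers. The part of these cell types in the members' levels was not tested.

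**Figure D2:**
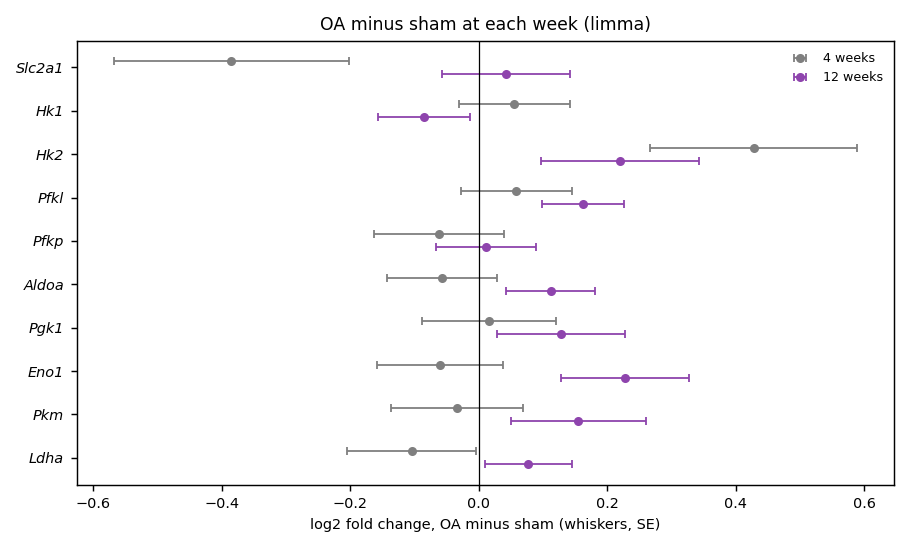
Log2 fold change of normalized reads, OA minus sham (x axis), of the 10 members (y axis) from limma, at 4 weeks in grey (5 against 5 libraries) and at 12 weeks in purple (4 against 4), with SE whiskers. Hk2 at 0.43 and Slc2a1 at -0.38 lie farthest from 0 at 4 weeks, and 9 of 10 members lie to the right of 0 at 12 weeks.

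The wider pathway was read from lists of 98 further genes of glucose metabolism and low oxygen. No gene of these lists, and no cell type marker, was called between OA and sham in limma at either week. Of the 12 other glycolysis enzyme genes tested, 6 were higher and 6 lower in OA at 4 weeks (median -0.04), and 8 were higher and 4 lower at 12 weeks (median 0.09). Gpi, the isomerase between the hexokinase and phosphofructokinase steps, had log2 fold changes of 0.03 (SE 0.07) and 0.10 (SE 0.08), and Pgam1, the mutase before enolase, -0.13 (SE 0.11) and 0.02 (SE 0.08). Tpi1 had only 4 to 44 recovered reads per library, against 2679 to 9321 for Aldoa. Its log2 fold changes of 0.54 (SE 0.44) and 1.29 (SE 0.36) rest on few reads, with an adjusted p of 0.278 at 12 weeks in limma. The RefSeq annotation of GRCr8 names 3 pseudogenes after Tpi1. Whether so few reads reflect its expression or how reads were assigned was not tested. Eno3, the muscle enolase gene, had -0.12 (SE 0.15) and -0.05 (SE 0.09).

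The other transporters were 6 higher and 6 lower at 4 weeks and 10 higher and 2 lower at 12 weeks. Among the 5 genes that set the phosphofructokinase activator fructose-2,6-bisphosphate, Pfkfb3 had log2 fold changes of -0.07 (SE 0.12) and -0.27 (SE 0.11), with an adjusted p of 0.378 at 12 weeks in limma. Hif1a, which encodes the oxygen-regulated subunit of HIF-1, had 0.16 (SE 0.12) and -0.05 (SE 0.09). Its lowest 4-week library was sham replicate 3, at 2384 normalized reads, against 3314 to 3910 in the other sham libraries. Known HIF targets outside glycolysis were 9 higher and 6 lower at 4 weeks (median 0.10) and 8 higher and 7 lower at 12 weeks (median 0.04). HIF regulators were 9 higher and 3 lower, then 5 higher and 7 lower, and the genes of pyruvate entry into mitochondria 7 higher and 6 lower at both weeks. The pentose phosphate genes, which draw glucose 6-phosphate away from glycolysis, were 5 higher and 2 lower at 4 weeks and 6 higher and 1 lower at 12 weeks, and glycogen genes 11 higher and 3 lower, then 8 higher and 6 lower.

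The second question, not used to choose the members, was how their levels at 12 weeks compared with those at 4 weeks within each surgery group. Because the weeks had been scaled separately, the recovered reads were put on 1 scale as CPM (each gene's reads scaled to a fixed total per library) with TMM scaling and fitted in 1 limma model of all 18 libraries. Week is tied to pool size and to the age of the rats at collection, which cannot be told apart. The sham libraries of each week also serve as the controls above, so the comparisons share libraries.

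In sham rats 9 members were lower and 1, Hk2, was higher at 12 weeks. None was called, against 1.41% of 14732 genes tested. The median log2 fold change was -0.25 over the members and -0.0026 over all genes tested, and ranged from -0.29 to -0.17 over the alternatives. Slc2a1 had the largest difference. It had 74.2, 46.9, 40.8, 46.9 and 47.3 CPM in sham at 4 weeks and 31.3, 29.3, 39.1 and 36.8 CPM at 12 weeks, and every 12-week library was below every 4-week library. The mean was 51.2 ± 13.1 CPM (SD, n = 5) at 4 weeks and 34.1 ± 4.59 CPM (SD, n = 4) at 12 weeks, a ratio of 0.666. In limma this was a log2 fold change of -0.56 (SE 0.16; adjusted p = 0.0769). Slc2a1 was the only member whose sham groups did not overlap, against 5.55% of all genes tested. The call turned on the method and on single libraries, with adjusted p-values of 0.0243 to 0.193 over 26 alternatives. DESeq2 called Slc2a1 at -0.59 with an adjusted p of 0.0243, where it called 3.13% of all genes. Without sham replicate 3 of 4 weeks, limma called it at -0.64 with an adjusted p of 0.0459, where 1.69% of all genes were called. Without sham replicate 1 of 4 weeks, the highest library, the log2 fold change was -0.42 with an adjusted p of 0.125 in limma, under the fold-change minimum.

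Eno1 and Pfkp came next in sham. Eno1 had 566, 432, 537, 431 and 422 CPM at 4 weeks and 346, 423, 352 and 337 CPM at 12 weeks, so that 1 library of 12 weeks reached the lowest of 4 weeks. In limma this was a log2 fold change of -0.38 (SE 0.10; adjusted p = 0.0595). Pfkp had 96.6, 86.6, 76.3, 91.1 and 84.7 CPM at 4 weeks and 63.8, 63.6, 78.2 and 72.5 CPM at 12 weeks, again with 1 library of overlap. That library, at 78.2 CPM, lay above only replicate 3 of 4 weeks, at 76.3 CPM. For Pfkp limma gave -0.32 (SE 0.09; adjusted p = 0.0678). Pkm, Pgk1 and Ldha had log2 fold changes of -0.26 (SE 0.11), -0.25 (SE 0.10) and -0.24 (SE 0.09), with adjusted p-values of 0.198, 0.194 and 0.161 in limma. Pfkl (-0.17, SE 0.08), Aldoa (-0.14, SE 0.07) and Hk1 (-0.05, SE 0.07) had adjusted p-values of 0.276, 0.320 and 0.705 in limma. Hk2 went the other way, with 154, 114, 91.0, 148 and 174 CPM at 4 weeks and 194, 149, 138 and 193 CPM at 12 weeks. The groups overlapped, and limma gave 0.33 (SE 0.15; adjusted p = 0.235). The lowest library of Hk2 was replicate 3 of 4 weeks. With each library left out in turn, the log2 fold change of Hk2 ranged from 0.18 to 0.43.

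**Figure D3:**
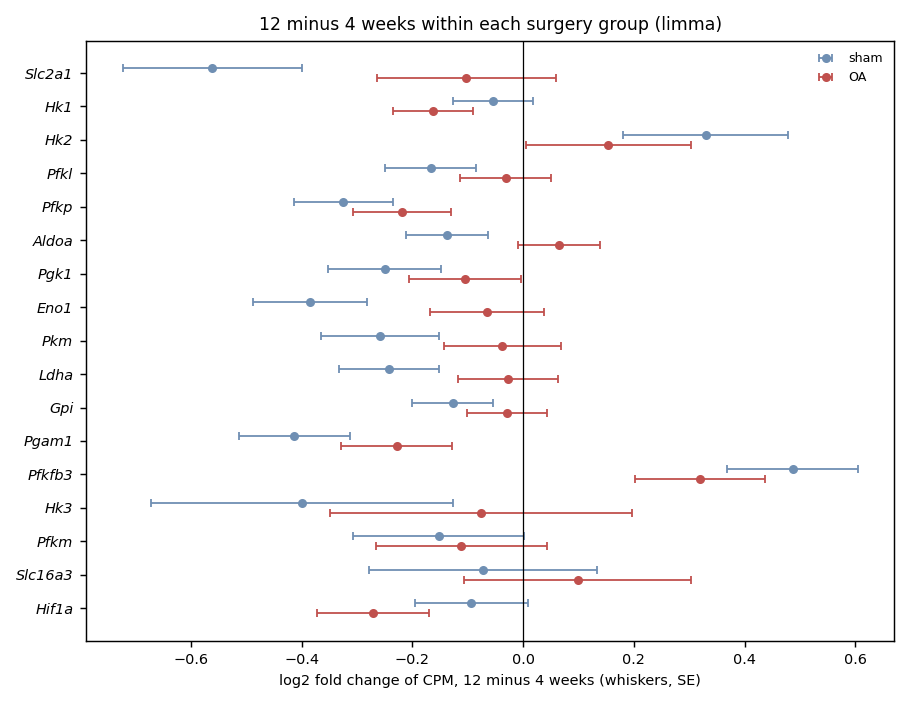
Log2 fold change of CPM, 12 minus 4 weeks (x axis), for the 10 members and 7 other genes of the pathway (y axis) in sham (blue, 4 against 5 libraries) and OA (red, 4 against 5), with SE whiskers from limma. In sham, 9 of 10 members lie left of 0, Slc2a1 farthest at -0.56, and in OA all 10 members lie between -0.22 and 0.15.

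In OA rats the members differed less between the weeks. Their log2 fold changes ran from -0.22 for Pfkp to 0.15 for Hk2, 8 lower and 2 higher at 12 weeks, with a median of -0.05 against -0.01 for all genes tested. In limma the adjusted p-values lay between 0.259 and 0.924, and no member was called, against 0.937% of all genes tested. Pfkp had 82.7, 94.7, 73.0, 73.5 and 87.5 CPM at 4 weeks and 72.6, 65.2, 72.2 and 71.5 CPM at 12 weeks. It was the only member whose OA groups did not overlap, against 10.8% of all genes tested, and its log2 fold change of -0.22 (SE 0.09) had an adjusted p of 0.259 in limma. Slc2a1 had 44.5, 48.6, 27.8, 33.3 and 38.1 CPM at 4 weeks and 38.2, 31.8, 34.7 and 36.2 CPM at 12 weeks in OA, a log2 fold change of -0.10 (SE 0.16). Whether the change between weeks differed between sham and OA was not tested.

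Neighbours in the pathway were compared between weeks in the same fit. Pgam1, the mutase gene, fell by 0.41 on the log2 scale in sham (SE 0.10, adjusted p = 0.0407 in limma), and Pfkfb3, whose enzyme makes the phosphofructokinase activator, rose by 0.49 (SE 0.12, adjusted p = 0.0405 in limma). Both passed on the adjusted p-value and missed the fold-change minimum of 0.5. In OA their log2 fold changes were -0.23 (SE 0.10, adjusted p = 0.293) and 0.32 (SE 0.12, adjusted p = 0.214) in limma. Pdp2, the gene of a phosphatase that switches on pyruvate dehydrogenase, rose by 0.31 in sham (SE 0.07, adjusted p = 0.0319) and by 0.39 in OA (SE 0.07, adjusted p = 0.0136) in limma, also under the minimum, and was singled out after its values were seen. Of the other glycolysis enzymes, 8 of 12 were lower in sham and 6 of 12 in OA. Hif1a had log2 fold changes of -0.09 (SE 0.10) in sham and -0.27 (SE 0.10) in OA, with adjusted p-values of 0.637 and 0.220 in limma. In sham at 4 weeks, replicate 3 had 214 CPM of Hif1a, against 281 to 326 CPM in the other libraries.

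The only gene of the glucose metabolism lists called between weeks was Pygm, the muscle form of glycogen phosphorylase, which rose in OA by 1.00 (SE 0.18, adjusted p = 0.0131 in limma). Muscle markers moved in the same comparison. In OA 7 of 19 were called higher at 12 weeks, Myh7 at 2.80, Tnni1 at 2.45, Mb at 2.19, Acta1 at 2.09 and Ckm at 1.57 among them, and in sham 2 of 19, Myh7 at 1.64 and Mb at 1.47. Their summed level was 145 to 194 CPM in OA at 4 weeks and 256 to 337 CPM at 12 weeks, and 158 to 361 and 234 to 292 CPM in sham, and no muscle marker in the tables was at 0 throughout a group. Of the 4-week sham libraries, replicate 3 had the highest muscle sum, 3902 normalized reads, against 1858 to 2404 in the others. The muscle-linked Eno3 and Pfkm were not called. Eno3 had 7.09 to 9.58 CPM in OA at 4 weeks and 10.6 to 11.3 CPM at 12 weeks. These groups did not overlap, as for 10.8% of all genes tested. In sham Eno3 had 6.12 to 11.7 and 10.8 to 12.4 CPM, which overlapped through replicate 3 of 4 weeks alone, at 11.7 CPM. The other 4-week sham libraries had 6.12 to 9.37 CPM, all below the 12-week range. Pfkm overlapped in both groups, with 23.8 to 39.8 and 26.0 to 29.4 CPM in OA and 29.8 to 37.0 and 23.3 to 44.8 CPM in sham. Cd163, a scavenger receptor of resident macrophages, was called higher in both groups, at 0.82 in sham and 0.74 in OA, and summed macrophage markers were 11882 to 14309 CPM at 4 weeks and 11123 to 16016 CPM at 12 weeks. Mmp9, on the neutrophil list, was called lower in sham at -2.51, with 174 to 493 CPM for that list at 4 weeks and 110 to 399 CPM at 12 weeks. In OA, Hba-a1 and Hbb, the globin genes, were called higher at 1.45 and 1.44, and Prg4, the lubricin gene of lining fibroblasts, at 1.30. No endothelial or T and NK cell marker was called. The part of these cells in the members' levels was not tested.

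Within groups, the lower enzymes varied together from library to library. With log2 CPM centred within each of the 4 groups, the 10 pairs among Aldoa, Pgk1, Eno1, Pkm and Ldha had Pearson correlations of 0.60 to 0.89 over 18 libraries, with a median of 0.75. The other 35 pairs, each with at least 1 gene of uptake, hexokinase or phosphofructokinase, had a median of 0.23. Eno1 and Pkm gave the highest value, 0.89, followed by Slc2a1 and Pfkp at 0.85. Hk2 stood apart, with a correlation of 0.04 with the mean of the other 9 members, against 0.84 for Aldoa, and of -0.34 with Ldha and -0.28 with Eno1. The points share their libraries, so all genes of a library carry its depth and cell makeup. The correlation of the members' mean with log2 depth was 0.09. Without sham replicate 1 of 4 weeks the median of the lower pairs was 0.67 and that of the others 0.14, and without sham replicate 3 they were 0.80 and 0.32. Aldoa, Pgk1, Eno1, Pkm and Ldha also have processed copies in the genome, with 8 to 31 pseudogenes of their names in the RefSeq annotation of GRCr8, against 0 for the other 5 members. Reads shared with such copies make the levels of these 5 genes less certain.

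**Figure D4:**
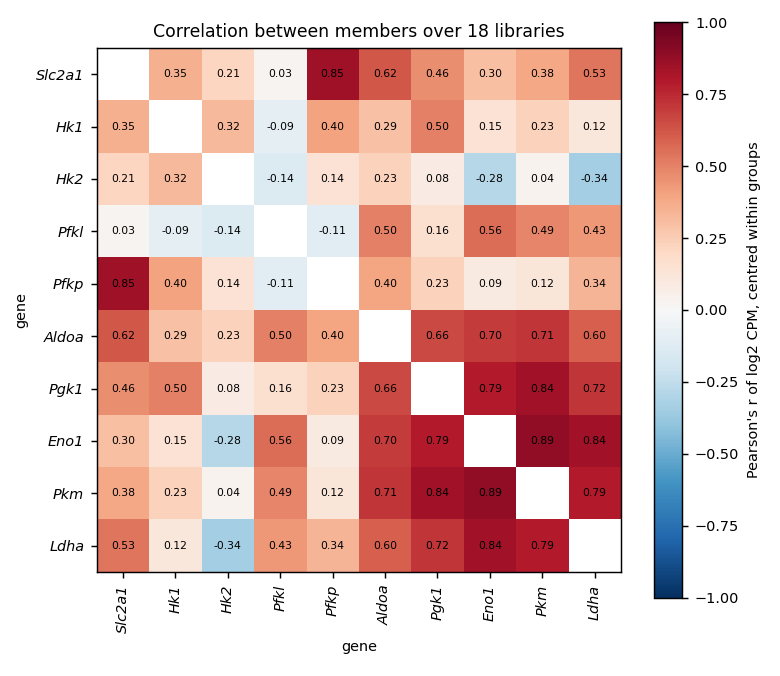
Pearson correlation of log2 CPM, centred within the 4 groups, between each pair of the 10 members (both axes, in pathway order) over 18 libraries, on a colour scale from -1 to 1. The block from Aldoa to Ldha holds values of 0.60 to 0.89, and the row of Hk2 is pale, with values from -0.34 to 0.32.

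The genes outside the 10 whose levels most resembled the members' mean, by the same correlation, were Pgam1 (0.87), Ifngr2 (0.86), Pcsk1 (0.85), Layn (0.84) and Scd (0.83). Pgam1 is itself a glycolysis enzyme gene, and Ifngr2 encodes a chain of the interferon gamma receptor. Pcsk1 and Scd averaged only 1.09 and 2.62 CPM. Over 14722 genes, the central 90% of correlations with the members' mean lay between -0.46 and 0.46.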

How the data were processed

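RNA from CD11b/c-sorted synovial cells was sequenced in 18 libraries, grouped by surgery and week from the sample labels. The authors collected read metrics with fastp 0.20.0, aligned reads to Rnor_6.0 with STAR 2.7.6a, removed duplicates with Sambamba and counted genes with featureCounts 2.0.0. Whether the counting used strand is not given in the sources used here. The authors deposited reads normalized by DESeq2, a signal of 0 or more, scaled separately in each week (DESeq2 1.24.0). The deposited tables also hold the authors' mean levels, log2 fold changes, standard errors, test statistics and p-values, which were not used. In every library 100% of values were whole multiples of 1 read, within 0.1 read, so reads were recovered.

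OA was compared with sham within each week in limma 3.58.1 (R 4.3.3), with a mean-variance trend, on log2(normalized reads + 1), on which changes of low genes look smaller. A mean of 10 or more was required. The weeks were compared on log2 CPM of recovered reads (TMM, prior count 2). Benjamini-Hochberg adjustment ran over all genes tested, with calls at a log2 fold change of 0.5 or more, up or down, and an adjusted p-value under 0.05. The fits were tested on simulated data with changes larger than those of the members. That test does not show whether changes as small as theirs would be called. Alternatives were a pseudocount or prior count of 0.5 or 5, a minimum mean of 50 or every gene with a read, TMM or DESeq2 scaling, edgeR 4.0.16, DESeq2 1.42.0, a replicate block and leaving out each library. Dropping the fold-change minimum was chosen after seeing the data. The members and lists were chosen with earlier results of these data known. Named were all members, 12 listed neighbours, of which Gapdh was not analysed here, up to 5 called genes per list and comparison, and the 5 genes most like the members' mean. Pdp2 was named after its values were seen. Pgd was not analysed here. Labels name separate pools of rats as replicates. The floor of 3 reads covers counting error only. Python 3.11.15, numpy 2.4.6, pandas 2.3.3 and matplotlib 3.10.9 were used.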

Additional observations from a re-analysis of the deposited data

Results flagged for a closer look

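In 5 of 40 sets of a member and a group, 1 library lay far from the rest, in Dixon's test at the 95% level. Chance alone gives this in about 1 of 20 separate sets. These sets share libraries and members vary together, so the 2 shares cannot be compared as if the sets were separate. Hk1 had 789 normalized reads in sham replicate 3 of 4 weeks, the library with the fewest reads, while the other 4 sham libraries had 954 to 1014. Pfkl had 1249 and Aldoa 5831 normalized reads in OA replicate 3 of 4 weeks, each the lowest of its group. Ldha had 4834 normalized reads in OA replicate 2 of 4 weeks, the highest of its group. Eno1 had 5750 normalized reads in sham replicate 2 of 12 weeks, against 4568 to 4715 in the other 3 sham libraries.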

How the results depend on the processing

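No member was called between OA and sham under any alternative run at either week, or between weeks in OA. Between weeks in sham, 1 member, Slc2a1, was called in DESeq2, and the count without each library in turn ranged from 0 to 1, with 1 without sham replicate 3 of 4 weeks. With every gene with a read, the log2 fold change of Hk1 between weeks in sham turned to 0.0175. Between weeks in OA, the log2 fold change without each library in turn ranged from -0.11 to 0.0155 for Pkm, from -0.0536 to 0.0295 for Ldha and from -0.0587 to 0.0062 for Pfkl. It turned positive without OA replicate 2 of 4 weeks (Pkm 0.0088, Ldha) or OA replicate 1 of 12 weeks (Pkm, Pfkl). The OA and sham direction of Pgk1 at 4 weeks turned in 7 of 18 alternatives and that of Pfkp at 12 weeks in 4 of 16. At 4 weeks it turned in 1 of 18 for Aldoa, Eno1 and Pkm (without sham replicate 1), Hk1 (without sham replicate 3) and Pfkl (without sham replicate 2), and at 12 weeks in 1 of 16 for Slc2a1 (without sham replicate 2). Libraries that share a number hold different rats, and their deviations correlated at -0.13 to 0.08 at 4 weeks and -0.03 to 0.30 at 12 weeks, so the numbers were not taken as a pairing. With the replicate block no member was called. Of all genes, it called 1 and 0 between OA and sham at 4 and 12 weeks, and 245 and 140 of 14732 between weeks in sham and OA. The members' median was -0.05 and 0.12 between OA and sham at 4 and 12 weeks and -0.27 and -0.07 between weeks in sham and OA. The number of libraries limits how small a difference in these genes could be called.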
